A study of Mus musculus with 12 samples.

Results

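A set of 10 transcription factors of cardiac fibroblasts and of the epicardium, the outer cell layer of the heart, were followed through activation and inhibition of the PDGF receptor in cultured mouse cardiac fibroblasts. They were picked by gene symbol, as Prrx1, Meox1, Tbx20, Tbx5, Tcf21, Twist1, Hand2, Gata4, Gata6 and Wt1. Like the gene lists used below, they were chosen with earlier results of these data known. All 10 were measured, each by 1 probe set with a single gene symbol, among 19938 genes in all. The cells were cardiac colony-forming-unit fibroblasts (cCFU-F), grown from heart cells sorted as SCA1+, PDGFRα+ and CD31-, from male C57BL/6 mice aged 12 weeks. They were studied as bulk cultures before the first passage, which the series calls P0. The 4 groups were PDGF-AB at 50 ng/ml, a ligand of the PDGF receptors, AG1296 at 1 uM, AG1296 at 10 uM and untreated, with 3 arrays each. AG1296 blocks the kinase activity of the PDGF receptors and also that of c-Kit. How long the cells were treated, and with which vehicle, was not given in the sources used here.

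During heart development some epicardial cells leave the surface, enter the muscle wall and become fibroblasts and mural cells. Tcf21 and Wt1 are classic markers of that lineage, and several factors of the early heart field, among them Gata4, Hand2, Tbx5 and Tbx20, remain expressed in cardiac fibroblasts of the adult. Gata4, Tbx5 and Hand2 are also members of the factor cocktails that push fibroblasts towards a cardiomyocyte-like state. Prrx1 and Twist1 are mesenchymal regulators of many organs, and Meox1 has been tied to fibroblast activation in stressed mouse hearts.

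The labelled cell type was checked against marker genes. Of 14 fibroblast markers 12 lay above the median of every array, and of 11 endothelial and 13 leukocyte markers 1 of each did (Egfl7 and Lyz2). Of 14 cardiomyocyte markers 3 did, namely Tnnt2, Actc1 and Nkx2-5, while 8, among them Myh6 and Nppa, lay below every array median. Of 14 measured epicardial or mesothelial markers 9 lay above it and 2, Msln and Muc16, below. Of 10 pericyte or smooth muscle markers 4 lay above it, Notch3, Mcam, Acta2 and Cnn1, and 3 below. Of 5 measured Schwann cell markers 2 lay above it, Foxd3 and Ncam1, and 1 below. As many probe sets lie above an array median as below it. The share of all genes above every array median was not computed, so these counts are a description. Array medians ran from 4.02 to 4.13 on the log2 scale. Arrays of the same group correlated across genes at r of 0.992 to 0.996, and arrays of different groups at 0.987 to 0.995. In such bulk cultures fewer cells of a type and less RNA per cell cannot be told apart.

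Prrx1 was the member that moved most clearly, and it moved in opposite directions with the ligand and with the inhibitor. Prrx1 encodes a paired-related homeodomain protein of the mesenchyme. Its log2 expression was 9.02, 9.27 and 9.14 with PDGF-AB, 8.04, 8.08 and 8.02 with AG1296 1 uM, 8.10, 8.26 and 8.10 with AG1296 10 uM, and 8.59, 8.43 and 8.36 in untreated cells. All 3 PDGF-AB arrays lay above all untreated arrays, all 6 AG1296 arrays lay below them, and no array of any treatment overlapped with the untreated ones. Prrx1 rose with PDGF-AB by 0.68 ± 0.09 on the log2 scale (SE, n = 3 arrays a group; 1.6-fold; limma, adjusted p = 0.0073). It fell with AG1296 1 uM by 0.42 ± 0.09 (adjusted p = 0.0277). At 10 uM its log2 change was -0.31 ± 0.09, which did not pass (adjusted p = 0.158; 95% interval -0.51 to -0.10). These comparisons share the 3 untreated arrays.

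The largest contrast for Prrx1 was between the 2 treatments. It was higher with PDGF-AB than with AG1296 1 uM by 1.10 ± 0.09 (2.14-fold; adjusted p = 6.14e-06) and higher than with AG1296 10 uM by 0.99 ± 0.09 (1.98-fold; adjusted p = 3.18e-05). Between the doses, 10 uM minus 1 uM was 0.11 ± 0.09 (adjusted p = 0.796; 95% interval -0.09 to 0.31). The 2 treatment contrasts passed under all 19 alternatives of processing and of arrays. The rise against untreated missed the threshold when only the 6 arrays compared were fitted (0.112). The fall at 1 uM missed it when AG1296 1 uM replicate 1, 2 or 3 was left out (0.1, 0.0734 and 0.0931), without untreated replicate 1 or 2 (0.131 and 0.0718), after median centring (0.0604) and with only 6 arrays (0.0546).

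The sequence just upstream of Prrx1 is shown because this gene carries the main difference. RefSeq promoter sequence (build GRCm38.p6) was at hand for 5 of the 10 members, Prrx1, Hand2, Tbx20, Tcf21 and Twist1. The 250 bases before the listed transcription start of Prrx1, at chr1:163313651-163313900 on the minus strand, read as follows from 5′ to 3′ on the strand of the gene, with the homeodomain core TAATTA in capitals.
Prrx1: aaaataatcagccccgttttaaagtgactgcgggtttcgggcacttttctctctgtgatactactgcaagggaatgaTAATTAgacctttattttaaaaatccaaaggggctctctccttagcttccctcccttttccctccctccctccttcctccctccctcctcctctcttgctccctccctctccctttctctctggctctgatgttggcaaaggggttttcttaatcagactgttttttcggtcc
The core lies 173 to 168 bases before the start. It is a letter match, the same on both strands, and was found in 4.84% of 32851 promoters of this length, those of Prrx1 and Hand2 included. The other motifs were searched on both strands of the same 250 bases of each promoter. The GATA letters AGATAA were found for Hand2 and Tcf21 (9.99% of all promoters) and the E-box CANNTG for Hand2 (66.2%). The T-box letters GGTGTGA (3.33% of all), the AP-1 letters TGANTCA (6.75%) and the CArG box (1.47%) were in none of the 5. Matches of different motifs may share bases.

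**Figure D1:**
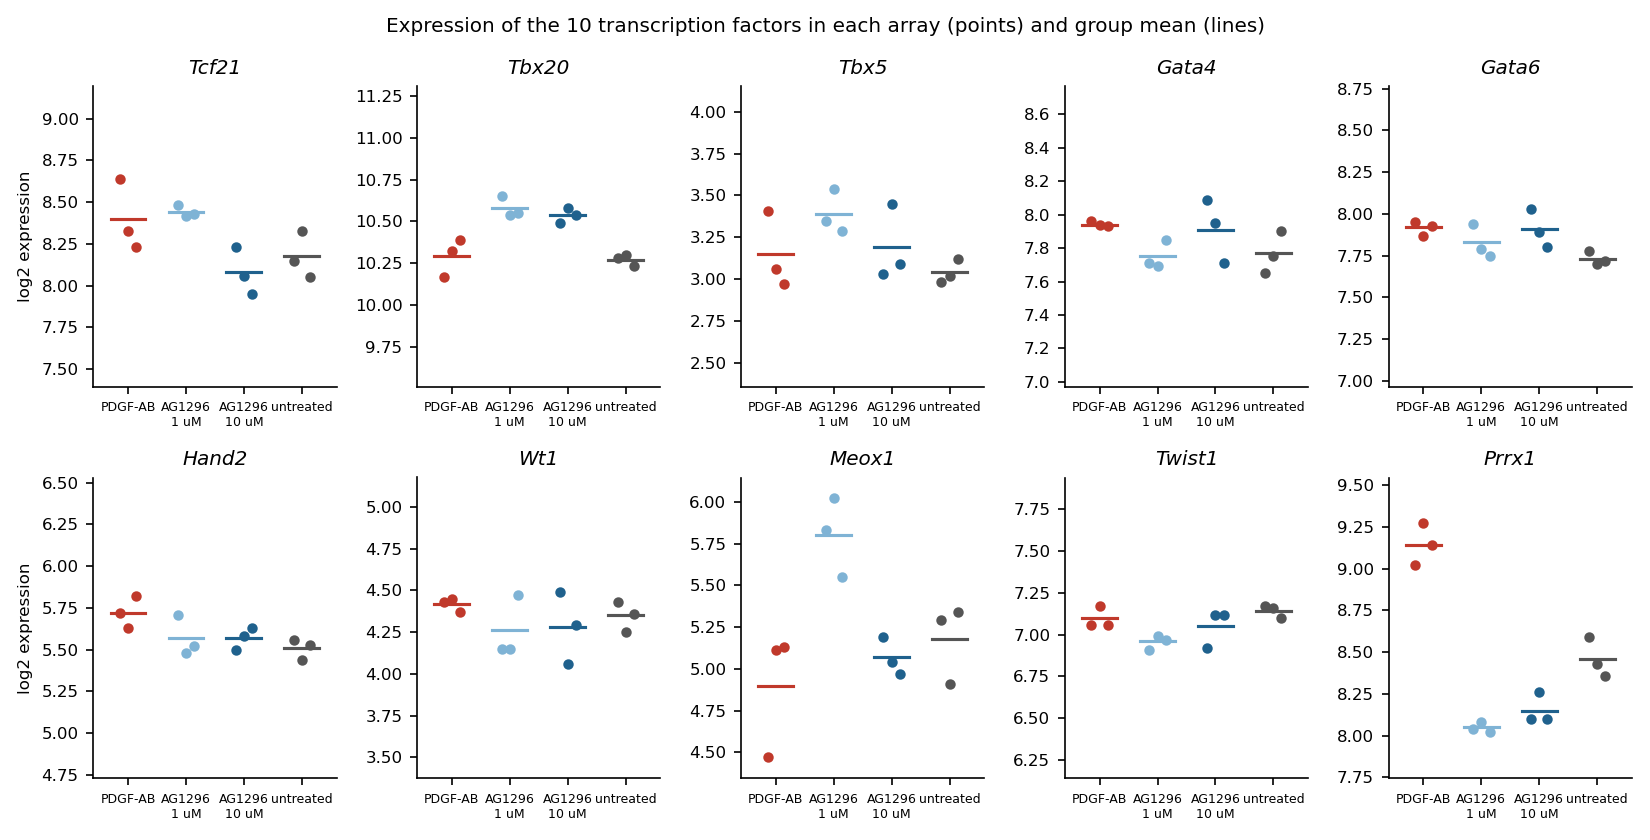
Log2 expression (vertical axis, the same span of 1.8 log2 units in each panel) of the 10 transcription factors by group (horizontal axis). Points are single arrays, 3 a group, and lines are group means. Prrx1 is highest in the PDGF-AB arrays (9.02 to 9.27) and lowest in the AG1296 arrays (8.02 to 8.26), and Meox1 is highest with AG1296 1 uM (5.55 to 6.02).

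Meox1, the other homeobox gene of the set, was highest with the lower dose of the inhibitor. Its log2 expression was 4.47, 5.11 and 5.13 with PDGF-AB, 5.83, 6.02 and 5.55 with AG1296 1 uM, 5.19, 5.04 and 4.97 with AG1296 10 uM, and 5.29, 4.91 and 5.34 in untreated cells. The 1 uM arrays lay above the other 9 arrays, and the other groups overlapped among themselves. In the F test over the 4 groups Meox1 passed (adjusted p = 0.0287). It was lower with PDGF-AB than with AG1296 1 uM by 0.89 ± 0.18 on the log2 scale (SE; difference -0.89; adjusted p = 0.00789), and this call held under all 19 alternatives.

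Against untreated cells the log2 change of Meox1 at 1 uM was 0.62 ± 0.18 (adjusted p = 0.0898; 95% interval 0.23 to 1.00) and did not pass. AG1296 10 uM minus 1 uM was -0.73 ± 0.18 (adjusted p = 0.139), with all 3 arrays at 10 uM below all 3 at 1 uM. PDGF-AB and AG1296 10 uM stood at -0.28 and -0.12 against untreated (adjusted p = 0.708 and 0.892). PDGF-AB replicate 1, at 4.47, was the lowest of the 12 arrays for Meox1. Without that array the change at 1 uM passed (adjusted p = 0.0271), as did the difference between doses (0.0442). The 1 uM change also passed with dim genes filtered out (0.045) and with an intensity trend and robust moderation (0.0278). The F test call missed the threshold with the replicate number as a block (0.0581), without AG1296 1 uM replicate 1 or 2 (0.124 and 0.156) and without AG1296 10 uM replicate 2 or 3 (0.0546 and 0.0511).

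Tbx20, a T-box repressor and activator of the heart, was a little higher in all AG1296 arrays. It stood at 10.17, 10.32 and 10.39 with PDGF-AB, 10.65, 10.54 and 10.55 with AG1296 1 uM, 10.49, 10.58 and 10.54 with AG1296 10 uM, and 10.28, 10.30 and 10.23 in untreated cells. The 6 AG1296 arrays lay above all PDGF-AB and untreated arrays. The log2 changes against untreated, 0.31 ± 0.08 at 1 uM and 0.27 ± 0.08 at 10 uM (SE), missed the threshold (adjusted p = 0.0695 and 0.174), and that with PDGF-AB was 0.02 ± 0.08 (adjusted p = 0.967; 95% interval -0.16 to 0.21). PDGF-AB minus AG1296 1 uM was -0.29 ± 0.08 (adjusted p = 0.0772), which passed with an intensity trend and robust moderation (0.00237) and with dim genes filtered out (0.0253). This gene depended on how the variance was modelled. With an intensity trend and robust moderation the changes at 1 uM and 10 uM passed (adjusted p = 0.00162 and 0.00851), and the F test gave an adjusted p of 0.000622, against 0.0679 without them. The 1 uM change also passed after quantile normalization (0.0499), with dim genes filtered out (0.0214) and without PDGF-AB replicate 1 (0.0431).

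Tbx5, the T-box factor of the atria, left ventricle and forelimb, lay below every array median in all 12 arrays, and no detection calls were used here. It ran from 2.97 to 3.54, with means of 3.15 ± 0.23 with PDGF-AB, 3.39 ± 0.13 with AG1296 1 uM, 3.19 ± 0.23 with AG1296 10 uM and 3.04 ± 0.07 in untreated cells (SD, n = 3 each). The 1 uM arrays lay above the untreated ones, with a log2 change of 0.36 ± 0.13 (SE) that did not pass (adjusted p = 0.235).

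The 3 basic helix-loop-helix factors stayed short of the threshold in every comparison of the main test. Tcf21, which is needed for the fibroblast lineage of the mouse heart, had 8.64, 8.33 and 8.23 with PDGF-AB, 8.48, 8.42 and 8.43 with AG1296 1 uM, 8.23, 8.06 and 7.95 with AG1296 10 uM, and 8.15, 8.33 and 8.05 in untreated cells. The 1 uM arrays lay above all 10 uM and untreated arrays, while PDGF-AB overlapped with every other group. Its log2 difference between 10 uM and 1 uM was -0.37 ± 0.12 (SE; adjusted p = 0.307) and its change at 1 uM against untreated 0.27 ± 0.12 (adjusted p = 0.342). With an intensity trend and robust moderation its F test passed (0.0342, against 0.209 without).

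Twist1, a driver of mesenchymal transition, ranged over only 0.26 log2 units in the 12 arrays. It averaged 7.10 ± 0.06 with PDGF-AB, 6.96 ± 0.04 with AG1296 1 uM, 7.05 ± 0.12 with AG1296 10 uM and 7.14 ± 0.04 in untreated cells (SD, n = 3 each). Its change at 1 uM was -0.18 ± 0.08 (SE; adjusted p = 0.370), with the 1 uM arrays below the untreated ones. Hand2, a regulator of the right ventricle and of the epicardium, averaged 5.72 ± 0.09 with PDGF-AB and 5.51 ± 0.06 in untreated cells, groups that did not overlap. Its log2 change with PDGF-AB was 0.21 ± 0.09 (adjusted p = 0.551), and at both doses of AG1296 it was 0.06 ± 0.09 (adjusted p = 0.873 and 0.890 at 1 uM and 10 uM).

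The zinc finger factors gave small changes of wide relative error. Gata4 had 7.96, 7.94 and 7.93 with PDGF-AB against 7.65, 7.75 and 7.90 in untreated cells, a log2 change of 0.17 ± 0.11 (SE; adjusted p = 0.686). Gata6, its relative that can stand in for part of its function in the heart, had 7.95, 7.87 and 7.93 with PDGF-AB against 7.78, 7.70 and 7.72 in untreated cells, a change of 0.19 ± 0.09 (adjusted p = 0.598). For both, the PDGF-AB arrays lay above the untreated ones. With AG1296 10 uM the changes of Gata4 and Gata6 were 0.15 and 0.18 (adjusted p = 0.694 and 0.485), and at 1 uM they were -0.02 and 0.10 (adjusted p = 0.976 and 0.750).

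Wt1, the Wilms tumour factor that marks the epicardium, was just above the median of its own array in 12 of 12 arrays, at 4.06 to 4.49. It averaged 4.42 ± 0.04 with PDGF-AB, 4.26 ± 0.18 with AG1296 1 uM, 4.28 ± 0.21 with AG1296 10 uM and 4.35 ± 0.09 in untreated cells (SD, n = 3 each), and its groups overlapped. The 95% intervals of its log2 changes against untreated ran from -0.18 to 0.32 with PDGF-AB, from -0.34 to 0.16 at 1 uM and from -0.32 to 0.19 at 10 uM.

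**Figure D2:**
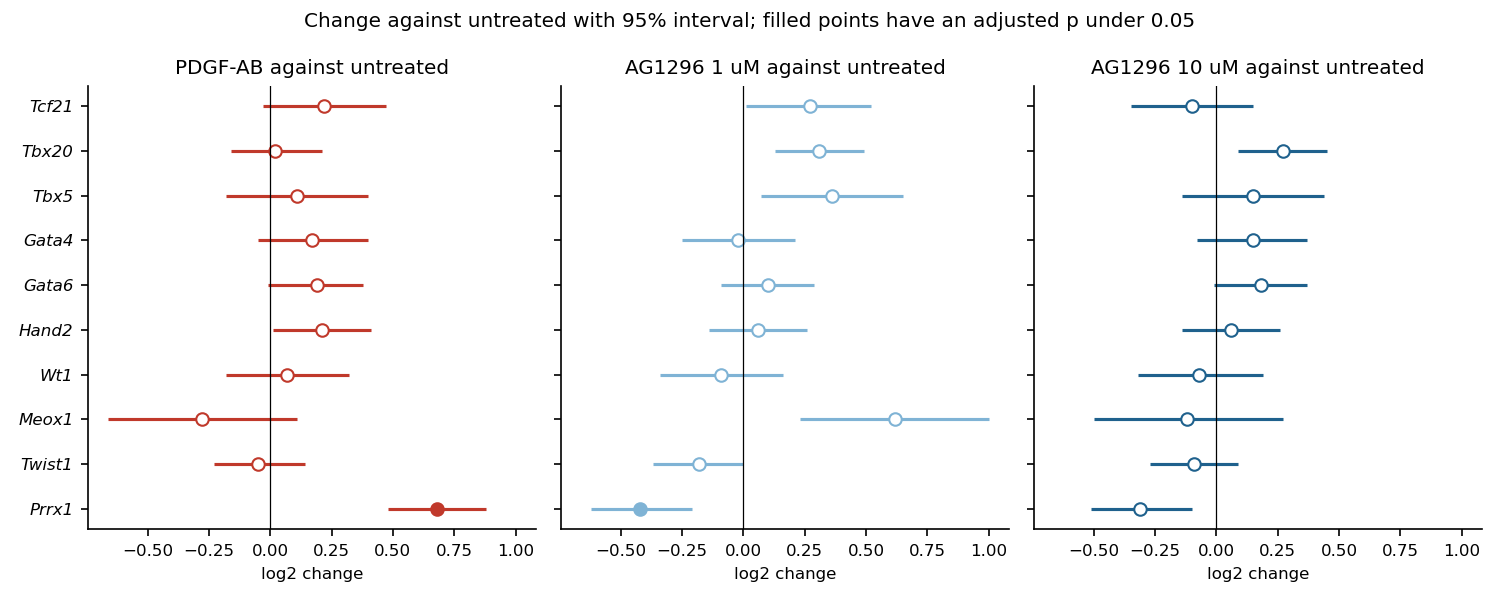
Log2 change against untreated (horizontal axis) of the 10 transcription factors (vertical axis) with PDGF-AB, AG1296 1 uM and AG1296 10 uM. Bars are 95% intervals from the limma fit, and filled points have an adjusted p under 0.05. Only Prrx1 has filled points, at 0.68 with PDGF-AB and -0.42 with AG1296 1 uM.

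Over the whole set, 1 of the 10 members was called with PDGF-AB against untreated, where 0.331% of all genes were, and 1 with AG1296 1 uM, where 3.20% of all genes were. Both calls are Prrx1. An unadjusted p under 0.05 was reached by 2 members with PDGF-AB, beside 8.55% of all genes, and by 6 members with AG1296 1 uM, beside 13.1%. With AG1296 10 uM 0 of the 10 were called by limma and 1.88% of all genes were. At an unadjusted p under 0.05 stood 2 members, Tbx20 and Prrx1, and 11.4% of all genes, and limma with an intensity trend and robust moderation called both. For AG1296 10 uM against 1 uM 0 members and 0.376% of all genes were called, with 2 members, Meox1 and Tcf21, and 9.07% of genes at an unadjusted p under 0.05, and with a trend and robust moderation 1 member, Meox1. Between PDGF-AB and AG1296 1 uM the calls were 2 members, Prrx1 and Meox1, and 5.21% of all genes, and between PDGF-AB and AG1296 10 uM 1 member, Prrx1, and 3.42% of all genes. The F test called 2 members and 5.00% of all genes. Unadjusted, 3 members passed 0.05 between PDGF-AB and AG1296 1 uM (16.9% of all genes) and 3 between PDGF-AB and AG1296 10 uM (14.1%). In the F test 4 members did (15.9%). With so few members, chosen with earlier results of these data known, these shares are a description.

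Groups that did not overlap were more frequent. With PDGF-AB 4 of the 10 members had all 3 arrays above the untreated ones, Prrx1, Gata4, Gata6 and Hand2, where 13.3% of all genes had groups that did not overlap in either direction. With AG1296 1 uM 6 members did not overlap with untreated, Meox1, Tbx20, Tbx5 and Tcf21 above and Prrx1 and Twist1 below (20.3% of all genes). With AG1296 10 uM 3 members did not overlap, Tbx20 and Gata6 above and Prrx1 below (18.0% of all genes). The median log2 change of the 10 members was 0.14 with PDGF-AB and 0.08 with AG1296 1 uM, beside 0.01 and -0.01 over all genes. With AG1296 10 uM it was -0.00, beside 0.01 over all genes, with 5 members above and 5 below 0.

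Fibroblast markers moved in these same comparisons. Of the 14 markers 5 rose and 2 fell with AG1296 1 uM (50%, beside 3.20% of all genes), and 3 rose and 1 fell with AG1296 10 uM (28.6%, beside 1.88%). With PDGF-AB limma called 0, beside 0.331% of all genes, with 4 at an unadjusted p under 0.05, beside 8.55%. Between PDGF-AB and AG1296 1 uM 5 were higher and 2 lower with PDGF-AB (50%, beside 5.21%), and between PDGF-AB and AG1296 10 uM 2 were higher and 2 lower (28.6%, beside 3.42%). The genes described next were named after their values were seen. Dcn, the matrix proteoglycan decorin, averaged 7.18 ± 0.12 with PDGF-AB, 9.35 ± 0.17 with AG1296 1 uM, 8.39 ± 0.10 with AG1296 10 uM and 7.64 ± 0.04 in untreated cells (log2, SD, n = 3 each), and rose by 1.70 and 0.75 at 1 uM and 10 uM (adjusted p = 8.21e-07 and 0.00155). Pdgfra, the receptor the cells were sorted on, fell by 0.91 at 1 uM (adjusted p = 3.84e-05), and Lum, the proteoglycan lumican, rose by 1.91 (adjusted p = 2.1e-06). These 4 calls held under all 19 alternatives. At 10 uM the change of Pdgfra was -0.40, a call lost under 14 of the 19. For Lum 10 uM minus 1 uM was -1.96, which held under all 19. Of the 10 pericyte or smooth muscle markers limma called 0 with PDGF-AB and 2 lower at 1 uM (20%). At 10 uM 1 was higher and 1 lower (20%). Between PDGF-AB and 1 uM 3 were higher with PDGF-AB (30%), and between PDGF-AB and 10 uM 1 was lower (10%). What part the state or number of fibroblasts, or of pericytes and smooth muscle cells, had in the values of the 10 factors was not tested.

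The genes whose pattern was most like that of Prrx1 were sought by Pearson's r of log2 expression over the 12 arrays, which share the 4 groups, so that r is a description. They were Cblb, a ubiquitin ligase that dampens receptor tyrosine kinases (r = 0.970), Mgp, a matrix protein that inhibits calcification (0.969), and Abcc4, an exporter of cyclic nucleotides and other anions (0.961). Of these Mgp rose with PDGF-AB by 1.30 on the log2 scale (limma, adjusted p = 0.000117) and fell by 0.82 at both 1 uM and 10 uM (adjusted p = 0.000307 and 0.000524). Cblb stood at 0.49 with PDGF-AB and -0.32 at 1 uM (adjusted p = 0.0531 and 0.105), and Abcc4 at 0.37 and -0.29 (0.252 and 0.217).

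For Meox1 they were Wbp4, a splicing-associated protein (r = 0.942), Arhgap18 (0.919), and Nop10, a small protein of the particles that modify RNA (0.905). Arhgap18 was called at 1 uM, with a log2 change of 0.84 (adjusted p = 0.0141). It missed the threshold when AG1296 1 uM replicate 1 or 2 was left out, or untreated replicate 1 (up to 0.0777). Like Meox1, all 3 of these genes had their lowest value in PDGF-AB replicate 1, and r without that array was not computed.

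**Figure D3:**
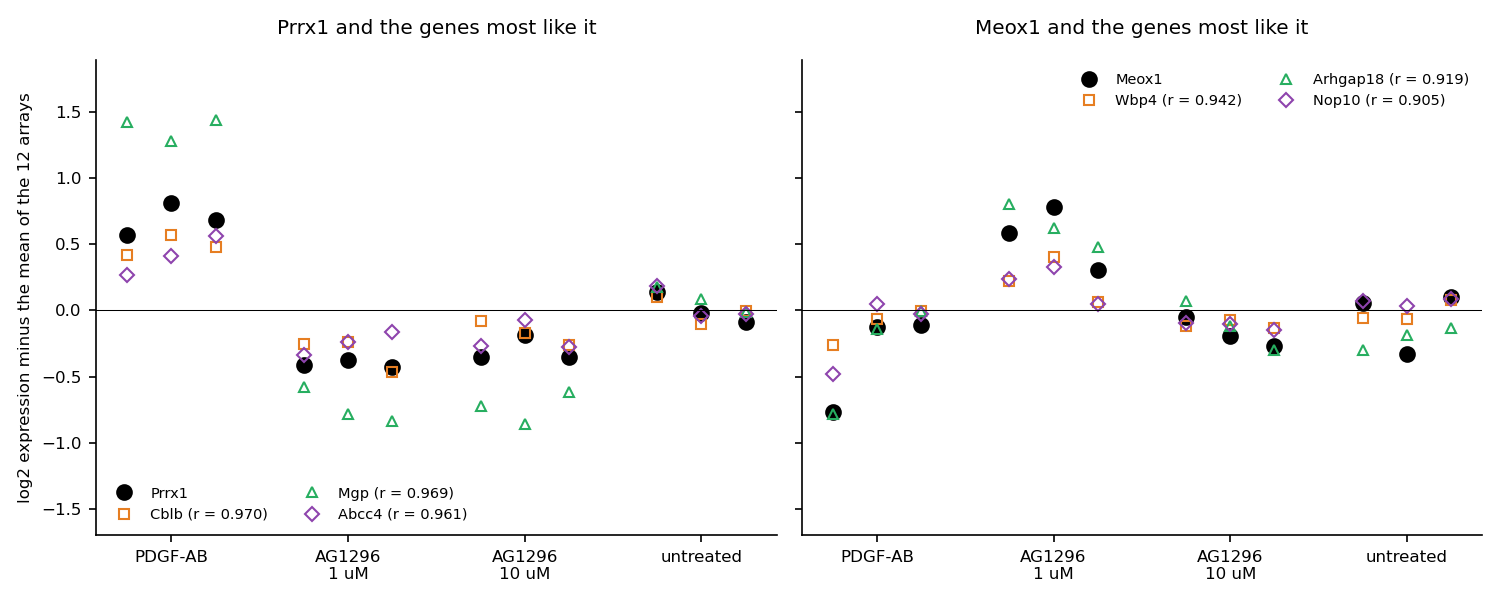
Log2 expression minus the mean of the 12 arrays (vertical axis) for Prrx1 (left) and Meox1 (right), black, with the 3 genes of highest Pearson r to each, in the 12 arrays by group (horizontal axis). Prrx1 and its 3 neighbours are high in the PDGF-AB arrays and low in the AG1296 arrays, and Meox1 and its neighbours are lowest in the first PDGF-AB array.

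Other transcription factors of cardiac mesenchyme and epicardium were read from a list of 47, of which 46 were measured. With PDGF-AB 0 of the 46 were called by limma, and 4 had an unadjusted p under 0.05, where 8.55% of all genes did. With AG1296 1 uM 2 rose and 1 fell, 6.52% of the list beside 3.20% of all genes, and with AG1296 10 uM 1 rose, 2.17% beside 1.88%. The list's median log2 change was 0.01 with PDGF-AB, 0.00 at 1 uM and 0.02 at 10 uM, beside 0.01, -0.01 and 0.01 over all genes.

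Sox9, a regulator of cartilage and of matrix genes, rose to 7.77 ± 0.11 at 1 uM and 8.00 ± 0.08 at 10 uM, against 7.24 ± 0.02 in untreated cells (SD, n = 3 each), log2 changes of 0.53 and 0.76 (adjusted p = 0.00273 and 0.000264). Nfib, of the nuclear factor I family, rose at 1 uM by 0.74 ± 0.11 (SE; adjusted p = 0.00207). Mef2a, a MADS-box factor of muscle genes, fell at 1 uM by 0.44 ± 0.11 (adjusted p = 0.0434). It missed the threshold when AG1296 1 uM replicate 1 or 3, AG1296 10 uM replicate 1, PDGF-AB replicate 3 or any 1 untreated array was left out, after median centring, with all probe sets and with only 6 arrays (adjusted p up to 0.158). Tbx18, an epicardial marker beside Wt1 and Tcf21 that was named after its values were seen, stood at -0.04 with PDGF-AB, -0.17 at 1 uM and -0.26 at 10 uM (adjusted p = 0.971, 0.735 and 0.563).

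Between PDGF-AB and AG1296 1 uM, 3 of the 46 were higher with PDGF-AB, Mef2a, Meis1 and Mef2c, and 4 were lower, Nfib, Sox9, Ebf1 and Plagl1, 15.2% of the list beside 5.21% of all genes. The log2 differences furthest from 0 were 0.60 for Mef2a (adjusted p = 0.00435) and -0.72 for Nfib (adjusted p = 0.00147). The Sox9 call was lost under 2 of 19 alternatives (adjusted p up to 0.0535). Mef2c and Ebf1 lay close to the threshold (adjusted p = 0.0398 and 0.0433). Plagl1 was dim, with means of 3.70 with PDGF-AB and 4.12 at 1 uM. The calls of Meis1, Mef2c, Ebf1 and Plagl1 were not tried under the alternatives.

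A further list held 23 partners and antagonists of the members, among them Zfpm2, a cofactor of Gata4, Tcf3 and Tcf12, which pair with Tcf21, Twist1 and Hand2, and the Id proteins, which compete for those partners. Against untreated limma called 0 of the 23 in each of the 3 treatments. At an unadjusted p under 0.05 there were 1, 3 and 1 with PDGF-AB, AG1296 1 uM and AG1296 10 uM, where 8.55%, 13.1% and 11.4% of all genes stood. Zfpm2 stood at -0.05, 0.23 and 0.09 in that order (adjusted p = 0.918, 0.305 and 0.812). Tead2, a factor that pairs with YAP, was like Zfpm2 named after its values were seen. It was higher with PDGF-AB than with AG1296 1 uM and 10 uM, by 0.48 and 0.49 (adjusted p = 0.00879 and 0.0107). Of the 23 it was the 1 called in each comparison, 4.35% of the list beside 5.21% and 3.42% of all genes.

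The last list held 21 genes linked to the members in heart development or in fibroblasts, as targets or as part of the same pathways, of which 20 were measured. It was written with earlier results of these data known, which include several of its genes. With PDGF-AB 0 rose and 2 fell (10% of the list, beside 0.331% of all genes), with AG1296 1 uM 4 rose and 1 fell (25%, beside 3.20%), and with AG1296 10 uM 3 rose and 1 fell (20%, beside 1.88%). The medians were -0.07, -0.03 and 0.01, beside 0.01, -0.01 and 0.01 over all genes.

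Sema3d, a guidance factor of the epicardial lineage, averaged 7.23 ± 0.08 with PDGF-AB, 8.93 ± 0.08 with AG1296 1 uM, 8.49 ± 0.10 with AG1296 10 uM and 7.82 ± 0.05 in untreated cells (SD, n = 3 each). It fell by 0.59 with PDGF-AB (adjusted p = 0.0107) and rose by 1.11 and 0.67 at 1 uM and 10 uM (adjusted p = 5.21e-06 and 0.000825). Its fall with PDGF-AB was lost without untreated replicate 1 and with only 6 arrays (adjusted p up to 0.107). Bmp4, a ligand of the BMP pathway, rose at 1 uM by 1.08 (adjusted p = 0.000118) and at 10 uM by 0.53 (adjusted p = 0.0344), and fell with PDGF-AB by 0.61 (adjusted p = 0.0480). The Bmp4 calls at 10 uM and with PDGF-AB were lost without any 1 of the 3 untreated arrays, without AG1296 1 uM replicate 1 and without AG1296 10 uM replicate 1 or 2 (adjusted p up to 0.145 and 0.207). The PDGF-AB call was also lost without PDGF-AB replicate 1 or 2 and without AG1296 1 uM replicate 2. Both were lost after median centring, with all probe sets and with a replicate block, and the PDGF-AB call with only 6 arrays, so that 13 of 19 alternatives ended it and 9 of 19 ended the 10 uM call.

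Postn, the matricellular protein periostin, rose by 0.43 at 1 uM and 0.68 at 10 uM (adjusted p = 0.0407 and 0.00381). Sema3c, a guidance factor of the outflow tract, rose by 0.42 at 1 uM (adjusted p = 0.0278). Nppb, the natriuretic peptide BNP, fell by 0.77 at 10 uM (adjusted p = 0.0310). Its mean lay below the array medians in every group, 3.93 in untreated cells included, and the filter on dim genes removed it. Both 1 uM calls, Postn and Sema3c, missed the threshold when AG1296 1 uM replicate 1 or 2 or untreated replicate 1 or 3 was left out. Postn did so too without AG1296 1 uM replicate 3, AG1296 10 uM replicate 1 or 3 or PDGF-AB replicate 3, and Sema3c without untreated replicate 2 (up to 0.168 and 0.140). With only 6 arrays both missed it, and Postn also after median centring and with all probe sets. That of Nppb was lost without any 1 untreated array or AG1296 10 uM replicate 1 or 2, with a replicate block, with all probe sets and with only 6 arrays (up to 0.134).

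Tnc, or tenascin-C, has been placed in a loop with Prrx1 and Twist1 in human fibroblasts. It was named after its values were seen. It averaged 9.12 ± 0.08 with PDGF-AB, 8.44 ± 0.05 with AG1296 1 uM, 8.78 ± 0.04 with AG1296 10 uM and 8.76 ± 0.03 in untreated cells (SD, n = 3 each), and was higher with PDGF-AB than with AG1296 1 uM by 0.67 ± 0.08 (SE; adjusted p = 0.000102). Its change with PDGF-AB against untreated was 0.36 (adjusted p = 0.101). Its change of -0.32 at 1 uM (adjusted p = 0.0449) was called, but not when any 1 array other than PDGF-AB replicate 1 was left out, nor after median centring, with all probe sets or with only 6 arrays (adjusted p up to 0.157). Aldh1a2, the retinoic acid enzyme downstream of Wt1 in the epicardium, was also named after its values were seen. It was higher with PDGF-AB than with AG1296 1 uM and 10 uM by 0.91 and 1.00 (adjusted p = 0.00149 and 0.000997). Against untreated it stood at 0.61 with PDGF-AB (adjusted p = 0.140). Tnc and Aldh1a2 were the 2 of the 20 genes called higher with PDGF-AB than with 1 uM, where 5 were lower (35% in all, beside 5.21% of all genes). Against 10 uM the same 2 were higher and 4 were lower (30%, beside 3.42%). The lower ones were Sema3d, Bmp4, Postn and Sema3c, and against 1 uM also Ccn2, a call lost under 13 of 19 alternatives.

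**Figure D4:**
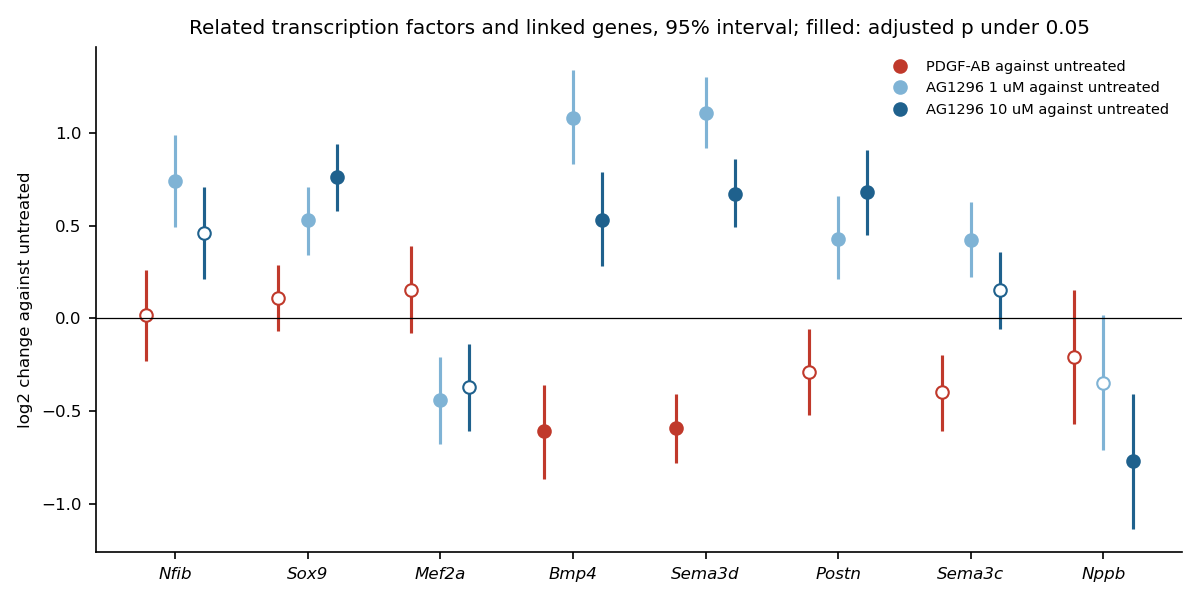
Log2 change against untreated (vertical axis) of the transcription factors Nfib, Sox9 and Mef2a and of 5 genes linked to the members (horizontal axis), for PDGF-AB, AG1296 1 uM and AG1296 10 uM. Bars are 95% intervals and filled points have an adjusted p under 0.05. Sema3d and Bmp4 are below 0 with PDGF-AB (-0.59 and -0.61) and above 0 with both doses of AG1296.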

How the data were processed

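Total RNA was labelled with biotin (Affymetrix WT kit) for hybridisation in 1 colour, per the labels' protocols. The values are log2 expression per probe set as deposited by the authors, whose processing notes name RMA and limma without versions or settings. That they are log2 was inferred from their range. Symbols came from the platform table. Of 28853 probe sets 21789 had 1 symbol, 1621 several and 5443 none, and only the first kind was used. For 999 genes with several probe sets the one with the highest mean was kept, which left 19938 genes, with no filter.

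Limma 3.58.1 in R 4.3.3 was fitted to all 12 arrays with a mean per group and empirical Bayes moderation (prior degrees of freedom 5.35, residual 8). All tests were two-sided, and calls needed an adjusted p (Benjamini-Hochberg, over all genes of a comparison) under 0.05. The fit was tested on simulated data. The number of arrays limits the precision, and the p-values cover only the spread between these arrays, because no label says that they came from separate cultures or animals. Named genes were all members, up to 4 called genes a list and treatment, and the 3 genes of highest Pearson r with each member called in the F test, leaving out predicted, Rik, Gm, olfactory, vomeronasal, microRNA and small RNA genes. Further genes are said to be named after their values were seen, as were the markers in the closing section and the genes of the PDGF-AB against AG1296 comparisons. Members and lists were chosen with earlier results of these data known. The alternatives were a replicate block, quantile normalization, median centring, a filter on dim genes, an intensity trend with robust moderation, only the 6 arrays compared, all probe sets, and leaving out each array.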

Additional observations from a re-analysis of the deposited data

How the results depend on the processing

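Of 60 member changes each tried under the alternatives, those of Prrx1 kept their direction throughout. Sign changes came where the change was near 0: Tbx20 with PDGF-AB was -0.00138 after median centring, Wt1 between the doses -0.000194 after quantile normalization and -0.00194 after median centring, and Hand2 between the doses 0.00799 after quantile normalization. Leaving out 1 array gave ranges across 0 for Tbx5 (-0.0189 to 0.201) and Tbx20 (-0.0258 to 0.0868) with PDGF-AB, Hand2 (-0.0106 to 0.103) and Gata4 (-0.0786 to 0.0465) at 1 uM, and Wt1 at 10 uM (-0.172 to 0.0406). It did so for Hand2 (-0.0437 to 0.0699) and Wt1 (-0.0832 to 0.129) between the doses, and for Tcf21 between PDGF-AB and 1 uM (-0.167 to 0.0386). Between PDGF-AB and 10 uM the ranges crossed 0 for Twist1 (-0.0232 to 0.0783), Tbx5 (-0.171 to 0.0927), Gata4 (-0.0756 to 0.114), Gata6 (-0.0451 to 0.0695) and Meox1 (-0.273 to 0.0548). Not all of these changes were near 0 in the main fit, with -0.161 for Meox1 in this comparison and 0.113 for Tbx5 with PDGF-AB. Counts of called genes with 1 array left out were 21 to 62 for PDGF-AB, 349 to 718 for 1 uM, 219 to 434 for 10 uM, 16 to 82 between the doses, 696 to 1012 for PDGF-AB against 1 uM, 455 to 627 against 10 uM and 731 to 901 in the F test. The main counts were 66, 639, 375, 75, 1039, 682 and 997. An intensity trend with robust moderation gave 160, 1010, 686, 209, 1435, 1077 and 1610 in that order. Filtering dim genes gave 114 for PDGF-AB, 625 for 10 uM and 149 between the doses, and fitting only the 6 arrays, which leaves fewer degrees of freedom, 7, 218, 14, 691 and 391 for PDGF-AB, 10 uM, the doses and PDGF-AB against 1 uM and 10 uM. Members called were 0 with PDGF-AB with only 6 arrays. At 1 uM they were 2 after quantile normalization, 0 after median centring or with only 6 arrays, 3 with dim genes filtered or with the trend, and 0 to 3 with 1 array left out. With the trend they were 2 at 10 uM, 1 between the doses, 3 for PDGF-AB against 1 uM (as with dim genes filtered), 2 for PDGF-AB against 10 uM and 4 in the F test. Between the doses 0 to 1 and in the F test 1 to 2 were called with 1 array left out. The cause was not tested. As a replicate block the replicate number left 1 member, Prrx1, called in the F test. Same-numbered arrays deviated from their group means with r of -0.02 to 0.07 for number 1, 0.15 to 0.30 for number 2 and -0.03 to 0.22 for number 3. For number 2 the same-numbered array had the highest r in every comparison, and replicate 2 had the lowest array median in each group. The labels name no pairs or batches, so the main fit did not use the numbers. Whether same-numbered arrays share a batch was not tested. Dim-gene filtering left Tbx5 out, and the F test has no fit to 6 arrays. Whether Tbx5 was above background was not tested.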

Other observations

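Markers of the epicardium and mesothelium moved in both directions. With AG1296 1 uM 2 of the 14 measured rose and 3 fell (35.7%, beside 3.20% of all genes), and with 10 uM 0 rose and 2 of 14 fell, beside 1.88% of all genes. With PDGF-AB limma called 0, and 4 had an unadjusted p under 0.05, as did 8.55% of all genes. Between PDGF-AB and AG1296 1 uM 4 were higher and 3 lower with PDGF-AB (50%, beside 5.21%), and between PDGF-AB and AG1296 10 uM 3 were higher and 2 lower (35.7%, beside 3.42%). Upk1b, a uroplakin, fell by 0.82 at 1 uM and 1.13 at 10 uM (limma, adjusted p = 0.000109 and 2.09e-05), and Lrrn4, a membrane protein of mesothelium, by 0.72 and 0.84 (adjusted p = 0.0106 and 0.00545). Krt19, a keratin, fell by 0.72 at 1 uM (adjusted p = 0.0158). Upk3b and Gpm6a, used as markers of the same cells, rose at 1 uM by 0.55 and 1.13 (adjusted p = 0.00511 and 0.000379). The Krt19 and Lrrn4 calls at 1 uM were lost without AG1296 1 uM replicate 2, that of Krt19 also without AG1296 1 uM replicate 3 or untreated replicate 1 or 2, and that of Lrrn4 without untreated replicate 3 (Krt19 up to 0.0692, Lrrn4 up to 0.0572). The mean log2 level of the 14 markers ran from 4.90 to 5.13 over the PDGF-AB arrays, 4.91 to 4.99 with AG1296 1 uM, 4.85 to 4.95 with AG1296 10 uM and 5.05 to 5.11 in untreated cells. Their part in the values of Wt1, Tcf21 and the other members was not tested.

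Tnnt2, cardiac troponin T, lay above every array median at a level of 7.27 ± 0.06 in PDGF-AB cells, 6.89 ± 0.12 at AG1296 1 uM, 6.81 ± 0.11 at 10 uM and 7.01 ± 0.05 in untreated cells (log2 mean ± SD, n = 3 each). It was higher with PDGF-AB than with AG1296 1 uM and 10 uM by 0.38 and 0.46 (adjusted p = 0.0258 and 0.00990). It was the 1 cardiomyocyte marker of 14 called in either comparison, 7.14% of the markers beside 5.21% and 3.42% of all genes. Among the alternatives, the first missed the threshold when AG1296 1 uM replicate 2 or 3 was left out, or PDGF-AB replicate 1 or 3. The second missed it when AG1296 10 uM replicate 1 was left out. With the other alternatives counted, 6 of 19 ended the first call and 2 of 19 the second (adjusted p up to 0.108 and 0.0609).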
